A study of Mus musculus with 12 samples.

Results

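The replication-dependent histone genes were followed in mouse embryonic stem cells (ESCs) in which the coactivator YAP was transiently lowered or raised. They were taken as every gene of the deposited tables whose symbol begins with Hist1h, Hist2h, Hist3h or Hist4h and that had a mean of at least 10 expected counts over the libraries, which gave 69 of 24480 genes and left out none of the 69 symbols of that form. They comprised 6 H1, 19 H2a, 19 H2b, 12 H3 and 13 H4 genes. The cells were E14Tg2a, a feeder-free line grown undifferentiated in serum and leukemia inhibitory factor, and the deposited samples are 12 libraries in 4 groups of 3. In the knockdown experiment the line was transfected with Stealth siRNAs to Yap1 (YAP KD) or with scrambled siRNAs (CTR KD). In the overexpression experiment it received mouse YAP on a plasmid driven by the CAG promoter (YAP OE), or else a plasmid without YAP (CTR OE), given as GFP in the labels and as an empty vector in the study's text. All groups share the line and the lipid transfection, transfection was transient and not every cell need have taken up the siRNA or plasmid, and the libraries are bulk RNA, so that fewer cells in S phase and less histone RNA per cell cannot be told apart.

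Core histones H2a, H2b, H3 and H4 form the octamer around which DNA is wrapped, and the linker histone H1 binds where the DNA enters and leaves it. The replication-dependent genes for them mostly lack introns, lie mostly in clusters, and supply new histones mainly in S phase, when the DNA is copied. Their mRNAs are the known exception to polyadenylation: they end in a short stem-loop that is bound by the stem-loop binding protein SLBP, which takes part in 3′ end cutting, export, translation and decay. ESCs divide fast and spend much of their cycle in S phase. How RNA was selected for the libraries (by poly(A) tail or by removal of ribosomal RNA) is not given in the sources used here, and it would set which histone transcripts were captured.

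The stem-loop is shown first because it is the mark that separates these mRNAs from other mRNAs and because it is what SLBP, described later, binds. The search took only a perfectly paired 6-base-pair stem that starts with GG, with a 4-base loop that starts with TT. It found one in 43 of the 56 members whose Gencode vM1 transcript runs at least 16 bases past the stop codon. Those found began 21 to 58 bases after the stop codon, so a transcript that ends too soon cannot show one. A member without a match therefore need not lack a stem-loop. The form with the stem GGCTCT was the most frequent: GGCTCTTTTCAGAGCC was present in 28 members (4 H1, 10 H2a, 8 H2b and 6 H3). The H4 genes held other forms, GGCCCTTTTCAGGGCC in 6, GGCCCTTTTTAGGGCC in 2 and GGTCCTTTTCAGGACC in 2. A further 4 members (1 H1 and 3 H3) held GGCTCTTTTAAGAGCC, and 1 H2a gene held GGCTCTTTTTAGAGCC. The forms below, 5′ to 3′ and written as DNA, come from the member of each class with a high level per length that has one, with the stem-loop in capitals.
Hist1h1a: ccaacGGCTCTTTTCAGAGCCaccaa
Hist2h2aa1: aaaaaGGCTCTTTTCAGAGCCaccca
Hist1h2bg: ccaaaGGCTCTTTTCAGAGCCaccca
Hist1h3e: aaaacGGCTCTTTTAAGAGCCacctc
Hist1h4n: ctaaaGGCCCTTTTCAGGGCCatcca

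RefSeq start regions (GRCm38.p6) could be matched for 62 of the 69 members and were searched on both strands over the 250 bases before the start. The box CCAAT was found in 51 of 62 (82.3%) against 34.5% of all 27025 start regions. It was in 18 of 18 H2a, 16 of 16 H2b and 6 of 6 H1 genes but in 8 of 10 H3 and 3 of 12 H4 genes. TATAAA stood in 29 (46.8%) against 13.0% of all, and the octamer ATTTGCAT, known as the site of Oct-1, in 13 (20.97%) against 1.61% of all. The octamer was found in 7 H2a and 6 H2b genes. The core GGAATG, known as the centre of the site of the TEAD factors through which YAP acts on promoters, stood in 2 members (3.23%) against 12.6% of all start regions, and both, Hist1h4c and Hist1h4h, are H4 genes. These matches are descriptions of the letters only.

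Stretches of 120 bases before the start of 3 members are shown, 5′ to 3′ on the gene's strand, because they hold these elements, each in capitals where one of the searched motifs matches on this strand. The H2b gene Hist1h2bg lies on chr13 with the stretch at chr13:23571280-23571399, plus strand. The H2b gene Hist2h2bb has it at chr3:96269580-96269699, plus strand. For the H4 gene Hist1h4h it is chr13:23530924-23531043, plus strand.
Hist1h2bg: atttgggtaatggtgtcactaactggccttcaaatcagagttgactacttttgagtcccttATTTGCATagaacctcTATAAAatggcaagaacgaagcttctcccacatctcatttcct
Hist2h2bb: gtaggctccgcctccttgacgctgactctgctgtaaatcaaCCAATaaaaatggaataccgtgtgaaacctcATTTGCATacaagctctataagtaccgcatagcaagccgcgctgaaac
Hist1h4h: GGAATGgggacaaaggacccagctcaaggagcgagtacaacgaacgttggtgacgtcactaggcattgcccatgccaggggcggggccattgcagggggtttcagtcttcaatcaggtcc

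In GRCm38.p6, 54 members lie on chromosome 13 between 21715711 and 23934913, 10 on chromosome 3 between 96219885 and 96270192, 3 on chromosome 11 between 58948911 and 58955192 and 1 on chromosome 6 at 136803993 to 136804431. Hist1h2al, annotated as a transcribed pseudogene, stands apart on chromosome 13 at 51200084 to 51203066, and Hist3h2bb-ps is the other transcribed pseudogene. The copies are close to each other in sequence. The median share of a member's coding 50-base words that also occur in another gene was 84.6% for H2a, 81.8% for H3, 77.3% for H2b and 70.3% for H4, but 10.9% for H1. The expected counts, which RSEM divides between genes when a read fits several, were accordingly not whole in at least 1 library for 19 of 19 H2a, 18 of 19 H2b, 12 of 12 H3, 12 of 13 H4 and 4 of 6 H1 genes. Single copies were therefore read beside sums over a class.

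Yap1, the targeted gene, followed the labels: 125 ± 9.16 against 56.5 ± 1.72 CPM (SD, n = 3 each) in CTR KD and YAP KD, and 133 ± 1.96 against 259.8 ± 16.8 CPM (SD, n = 3 each) in CTR OE and YAP OE. Libraries held 4.29e+07 to 5.72e+07 expected counts, of which the histone genes took 2.03 to 2.63%. Small RNA entries, such as Mir, Snora and Snord genes, took 10.3 to 13.2%. The bearing of these shares on how RNA was selected was not tested. The 8 ESC markers (Pou5f1, Nanog and others) summed to 5542 to 6051 CPM (expected counts relative to the library's TMM-scaled size) in every library, and the 4 fibroblast markers tested to 1.84 to 3.02 CPM.

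Per length, the H4 genes gave the largest part of the histone pool. Levels between genes were compared as CPM per kilobase of effective length, averaged over the 12 libraries. On this scale H4 made up 32.3% of the summed level, H2b 27.6%, H3 16.8%, H2a 15.3% and H1 8.02%. The order H4, H2b, H3, H2a, H1 was the same in 12 of 12 libraries. Relative to H4, the summed level of H2b was 0.853 (range over the libraries 0.828 to 0.888), that of H3 0.521 (0.445 to 0.587), that of H2a 0.475 (0.367 to 0.566) and that of H1 0.249 (0.227 to 0.281). The ranges of the neighbours H3 and H2a overlap. The H2a ratio was the most spread: 0.513 ± 0.030 in CTR KD, 0.438 ± 0.11 in YAP KD, 0.491 ± 0.044 in CTR OE and 0.456 ± 0.065 in YAP OE (SD, n = 3 each). The place of H4 before H2b depends on the scale. In CPM, not divided by length, the H2b sum was the higher of the 2. Their means were 6203 CPM for H2b and 5545 CPM for H4 in CTR KD, and 6024 and 5442 CPM in CTR OE.

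Within each class a few copies carried much of the level, and the copies spanned orders of magnitude. Hist1h4n, at 3366 CPM per kilobase, was the highest member and ranked 19 of 14955 genes ranked on this scale. Hist1h4d (3224 CPM per kilobase) followed it among H4 genes. The leading members elsewhere were Hist1h2br (2677) and Hist1h2bg (2332) for H2b, Hist1h3e (2384) and Hist1h3h (1702) for H3, Hist2h2aa1 (2291) and Hist1h2ai (1583) for H2a, and Hist1h1a (1658) and Hist1h1d (1654) for H1, all in CPM per kilobase. The top member held 27.4% of its class for H1 (Hist1h1a), 19.8% for H2a (Hist2h2aa1), 18.8% for H3 (Hist1h3e), 13.8% for H4 (Hist1h4n) and 12.9% for H2b (Hist1h2br). The lowest members were Hist1h4m (187.6), Hist2h3c1 (25.6), Hist1h1t (8.54), Hist1h2aa (7.20) and Hist2h2be (0.380 CPM per kilobase). Hist1h1t, Hist1h2aa and Hist1h2ba (4.95 CPM per kilobase) encode the H1, H2a and H2b variants known from the testis. The last pair overlap the locus Gm33516, and since no strand setting is stated their reads and its reads cannot be told apart. The same holds for Hist1h2be with Gm33387, Hist3h2a with Trim17 and Hist3h2ba with Gm51864.

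**Figure D1:**
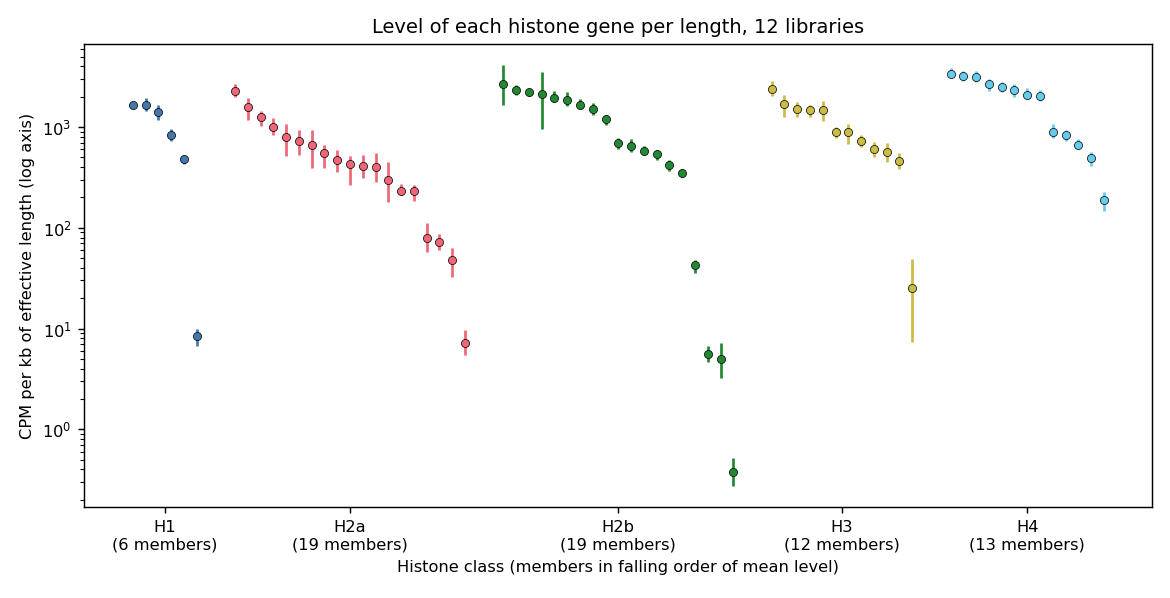
The level of each of the 69 histone genes is plotted in CPM per kilobase of effective length on a log axis, by class and in falling order within a class; points are means over 12 libraries and lines run from the lowest to the highest library. H4 members lie between 187.6 and 3366 CPM per kilobase, while H1, H2a and H2b each have members under 10.

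Lowering YAP left no class of histone mRNA past the test. With the members of each class summed, the level in YAP KD was 94.0% of that in CTR KD for H1, 84.9% for H2a, 99.9% for H2b, 89.5% for H3 and 99.3% for H4. H2a stood at 3991, 4875 and 4521 CPM in the CTR KD libraries and 3495, 3163 and 4709 CPM in the YAP KD libraries. Thus 2 of the YAP KD libraries lay below every control and replicate 3 lay between the controls (log2 fold change -0.24, SE 0.13, adjusted p = 0.36, edgeR quasi-likelihood test adjusted over all genes). H3 followed the same pattern at 4196, 4988 and 4446 CPM in the CTR KD libraries and 3898, 3624 and 4679 CPM in the YAP KD libraries (log2 fold change -0.16, SE 0.092, adjusted p = 0.39). H1 was 3479, 3916 and 3679.9 CPM in the CTR KD libraries and 3587, 3257 and 3565 CPM in the YAP KD libraries (log2 fold change -0.09, SE 0.056, adjusted p = 0.43). The other classes differed less between the groups than among the replicates. H2b was 5923, 6577 and 6110.0 CPM in the CTR KD libraries and 6496, 5896 and 6204 CPM in the YAP KD libraries (log2 fold change -0.00, SE 0.054, adjusted p = 0.99). H4 was 5293, 5963 and 5379 CPM in the CTR KD libraries and 5717, 5415 and 5387 CPM in the YAP KD libraries (log2 fold change -0.01, SE 0.054, adjusted p = 0.95). The 95% intervals of the fold change ran from 0.862- to 1.03-fold for H1, 0.696- to 1.04-fold for H2a, 0.919- to 1.09-fold for H2b, 0.776- to 1.03-fold for H3 and 0.913- to 1.08-fold for H4, so a fall of H2a by up to that lower bound is within them. The sum of all 69 members was 24446 ± 1739 CPM in the controls and 23031 ± 1600 CPM with YAP lowered (SD, n = 3 each), 94.2% of the control.

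Raising YAP likewise moved no class sum past the test. The level in YAP OE was 103% of that in CTR OE for H1, 90.3% for H2a, 97.1% for H2b, 91.9% for H3 and 96.5% for H4. H2a was 3953, 4518 and 4072 CPM in the CTR OE libraries and 3166, 4202 and 3959 CPM in the YAP OE libraries (log2 fold change -0.15, SE 0.084, adjusted p = 0.49). H3 was 4189.5, 4550.3 and 4281 CPM in the CTR OE libraries and 3412, 4353 and 4203 CPM in the YAP OE libraries (log2 fold change -0.12, SE 0.076, adjusted p = 0.54). Replicate 1 of YAP OE was the lowest of the 6 libraries in all 5 classes. H1 was 3358, 3574 and 3334 CPM in the CTR OE libraries and 3121, 3658 and 3759.5 CPM in the YAP OE libraries (log2 fold change 0.04, SE 0.067, adjusted p = 0.88). H2b was 6093, 6088 and 5891 CPM in the CTR OE libraries and 5461, 5663 and 6427 CPM in the YAP OE libraries (log2 fold change -0.04, SE 0.065, adjusted p = 0.86). H4 was 5515, 5355 and 5456 CPM in the CTR OE libraries and 4819, 5080.4 and 5863 CPM in the YAP OE libraries (log2 fold change -0.05, SE 0.068, adjusted p = 0.83). The controls of H2b and H4 were close together and the YAP OE libraries lay on both sides of them. The 95% intervals ran from 0.931- to 1.13-fold for H1, 0.798- to 1.02-fold for H2a, 0.883- to 1.07-fold for H2b, 0.822- to 1.03-fold for H3 and 0.874- to 1.07-fold for H4. All 69 members summed to 23409 ± 586 CPM in the controls and 22382 ± 2174 CPM with YAP raised (SD, n = 3 each), 95.6% of the control. At an unadjusted p under 0.05 edgeR called 0 class sums in either experiment, and DESeq2 and limma-voom called 0 after adjustment.

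**Figure D2:**
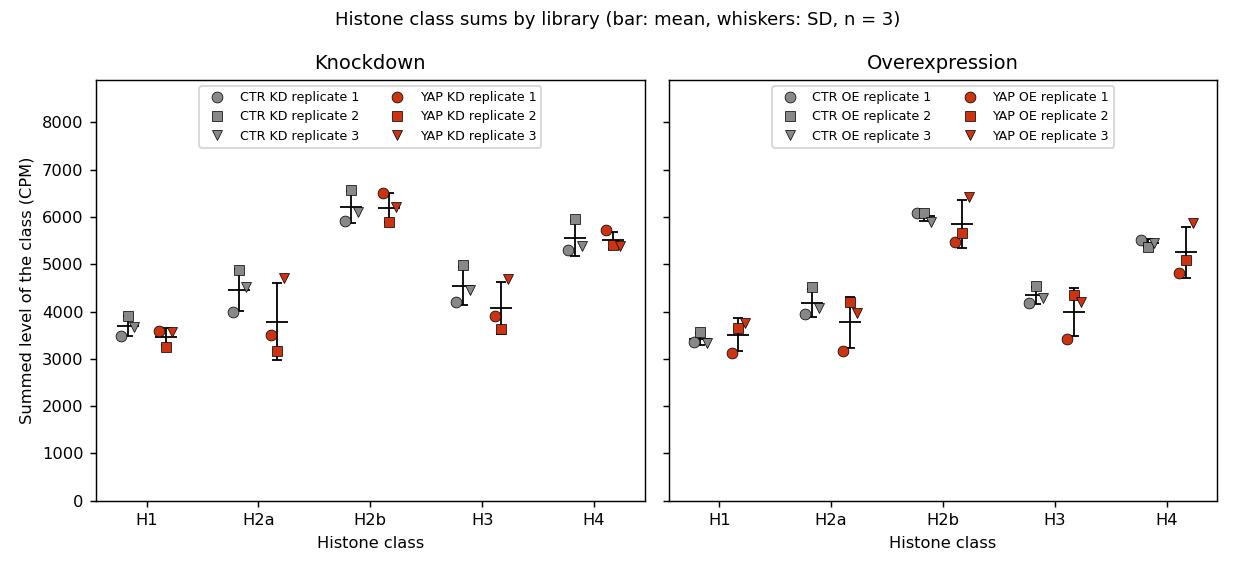
The summed level of each histone class, in CPM, is plotted for each library of the knockdown (left) and overexpression (right) experiments; symbols mark replicates, bars the mean and whiskers the SD of 3 libraries. In YAP KD, replicates 1 and 2 of H2a (3495 and 3163 CPM) lie below the controls and replicate 3 (4709 CPM) among them.

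The H2a result of the knockdown rested on 1 library. Without replicate 3 of YAP KD the H2a sum fell by 0.43 on the log2 scale (edgeR, adjusted p = 0.0353), whereas over the other leave-one-out fits and the 14 other settings the adjusted p was between 0.0974 and 1. In the same fit 10 of 69 members were called, all lower (7 H2a and 3 H3), against 369 of 14689 genes tested (2.51%, of which 199 lower, 1.35%). Those H2a genes were Hist1h2ad, Hist1h2ae, Hist1h2ag, Hist1h2ah, Hist1h2ai, Hist1h2an and Hist1h2ao, and the H3 genes Hist1h3d, Hist1h3e and Hist2h3b.

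Gene by gene, the test called 0 of 69 members in the knockdown, where it called 802 of 14606 genes tested (5.49%). At an unadjusted p under 0.05 it had 11 members, 4 higher and 7 lower, beside 19.6% of all genes (9.82% in each direction). DESeq2 called 2 (Hist1h3e and Hist2h3c1, both lower), beside 4.92% of all genes, and limma-voom 0. The median log2 fold change of the members was -0.05, beside 0.01 for all genes, and 19 were above 0. By class the median was -0.03 for H1, -0.19 for H2a, 0.01 for H2b, -0.17 for H3 and -0.03 for H4. All 12 H3 genes and 16 of 19 H2a genes had values below 0, against 9 of 19 H2b and 9 of 13 H4 genes. The 95% interval lay within 1.5-fold either way for 56 of 69 members and within 2-fold for 68.

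With YAP raised, the test called 0 of 69 members, beside 316 of 14804 genes tested (2.13%). There, 8 members had an unadjusted p under 0.05, all lower, beside 13.1% of all genes (7.55% higher and 5.59% lower). DESeq2 called 1 (Hist1h3g, lower), beside 2.05% of all genes, and limma-voom 0. The median log2 fold change was -0.08, beside -0.0025 for all genes, with 12 members above 0. By class it was 0.02 for H1, -0.15 for H2a, -0.05 for H2b, -0.15 for H3 and -0.06 for H4. The values of all 12 H3 genes and 17 of 19 H2a genes were below 0. The 95% interval lay within 1.5-fold for 66 of 69 members and within 2-fold for 68. The intervals are drawn in the plot of fold changes by member.

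**Figure D3:**
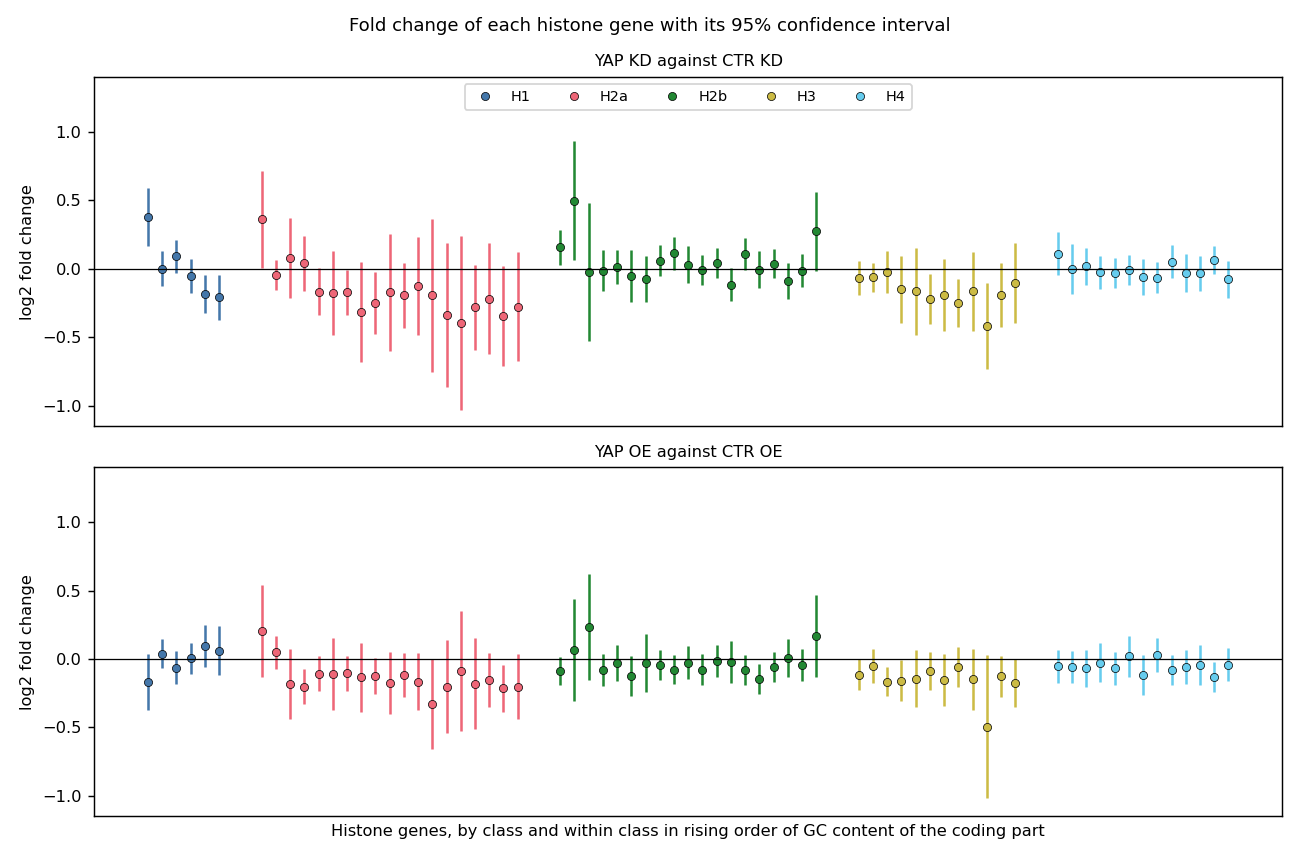
The log2 fold change of each histone gene (points) with its 95% confidence interval (lines) is plotted for YAP KD against CTR KD (top) and YAP OE against CTR OE (bottom), by class and within a class from low to high GC content; 2 members with no GC value stand last in their class. In the knockdown the H1, H2a and H3 points step down to the right, and 0 of 69 members passed the adjusted test in either experiment.

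Neither of the linker histones with the highest levels was called by edgeR. Hist1h1a, a main H1 copy whose counts were whole in all libraries, stood at 909, 1006 and 917 CPM in the CTR KD libraries and 1007, 931 and 894 CPM in the YAP KD libraries (log2 fold change -0.00, SE 0.057, adjusted p = 1.00). With YAP raised, Hist1h1a was 938, 937 and 913 CPM in the CTR OE libraries and 906, 936 and 1018 CPM in the YAP OE libraries (log2 fold change 0.04, SE 0.050, adjusted p = 0.83). Its groups overlapped in both. Hist1h1d was 1019, 1153 and 1087 CPM in the CTR KD libraries and 974.5, 879.6 and 1011 CPM in the YAP KD libraries, with every YAP KD library below every control (log2 fold change -0.19, SE 0.062, adjusted p = 0.13). With YAP raised, Hist1h1d was 904, 984 and 908 CPM in the CTR OE libraries and 852, 1064 and 1064 CPM in the YAP OE libraries (log2 fold change 0.09, SE 0.072, adjusted p = 0.66), and the groups overlapped. The difference between these effects was 0.28 ± 0.11 (log2, SE; adjusted p = 0.14).

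H2a genes had the widest spread among replicates. Hist2h2aa1, the leading H2a copy, was 849, 1009 and 943 CPM in the CTR KD libraries and 830.2, 752 and 909 CPM in the YAP KD libraries (log2 fold change -0.17, SE 0.077, adjusted p = 0.26). It was 880.1, 923 and 867 CPM in the CTR OE libraries and 741, 840.4 and 895 CPM in the YAP OE libraries (log2 fold change -0.11, SE 0.060, adjusted p = 0.48). In both experiments the groups overlapped and the YAP mean was lower. For Hist1h2ai the values were 433, 522 and 506 CPM in the CTR KD libraries and 324, 315 and 511 CPM in the YAP KD libraries (log2 fold change -0.35, SE 0.16, adjusted p = 0.28), so that replicate 3 of YAP KD lay with the controls. For the same gene the overexpression values were 422, 509 and 444 CPM in the CTR OE libraries and 340.5, 438 and 407 CPM in the YAP OE libraries (log2 fold change -0.21, SE 0.080, adjusted p = 0.23). Hist1h2ao, among the lowest fold changes of the knockdown, ranged most: 236, 337 and 299 CPM in the CTR KD libraries and 163, 146 and 354 CPM in the YAP KD libraries (log2 fold change -0.40, SE 0.28, adjusted p = 0.51). Replicate 3 of YAP KD was its highest library and replicates 1 and 2 its lowest. With YAP raised Hist1h2ao was 210.1, 301 and 241 CPM in the CTR OE libraries and 146, 345 and 217 CPM in the YAP OE libraries (log2 fold change -0.09, SE 0.20, adjusted p = 0.92). Hist1h2an, one of the lowest fold changes of the overexpression experiment, was 73.3, 100.4 and 81.2 CPM in the CTR OE libraries and 47.5, 89.0 and 66.9 CPM in the YAP OE libraries (log2 fold change -0.33, SE 0.15, adjusted p = 0.38). Its knockdown values were 81.1, 105 and 92.7 CPM in the CTR KD libraries and 65.2, 54.1 and 124 CPM in the YAP KD libraries (log2 fold change -0.19, SE 0.25, adjusted p = 0.74). Both sets overlapped between the groups. With the replicate number as a block, Hist1h2ai and Hist1h2an were called lower with YAP raised (log2 fold changes -0.22 and -0.36, adjusted p = 0.0406 and 0.0172).

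None of the leading H2b, H3 and H4 genes was called by edgeR in either experiment. Hist1h2bg was 665, 737 and 708 CPM in the CTR KD libraries and 656, 607 and 682 CPM in the YAP KD libraries (log2 fold change -0.12, SE 0.055, adjusted p = 0.28). It was 654, 711 and 649 CPM in the CTR OE libraries and 584, 647 and 751 CPM in the YAP OE libraries (log2 fold change -0.02, SE 0.072, adjusted p = 0.94). The groups overlapped in both. Hist1h3e, the leading H3 copy, was 706, 829.8 and 748 CPM in the CTR KD libraries and 625, 582 and 713 CPM in the YAP KD libraries, with 1 YAP KD library above the lowest control (log2 fold change -0.25, SE 0.079, adjusted p = 0.11). It was called under 3 of 14 other settings (DESeq2, no filter beyond 1 count and a GC trend removed) and without replicate 3 of YAP KD. In the other experiment Hist1h3e was 695, 735 and 714 CPM in the CTR OE libraries and 593, 733 and 733 CPM in the YAP OE libraries (log2 fold change -0.06, SE 0.067, adjusted p = 0.79). YAP OE replicate 1 alone was low there. Hist1h3h was 519.8, 648 and 561 CPM in the CTR KD libraries and 469, 435 and 636 CPM in the YAP KD libraries (log2 fold change -0.17, SE 0.13, adjusted p = 0.54). Under overexpression Hist1h3h was 511, 582 and 538 CPM in the CTR OE libraries and 382, 584 and 506 CPM in the YAP OE libraries (log2 fold change -0.15, SE 0.10, adjusted p = 0.60). Replicates 1 and 2 of YAP KD and replicate 1 of YAP OE were its low libraries. Hist1h4n was 620.4, 698 and 634 CPM in the CTR KD libraries and 635, 609 and 620.5 CPM in the YAP KD libraries (log2 fold change -0.07, SE 0.050, adjusted p = 0.53). Hist1h4n was 633, 629 and 641 CPM in the CTR OE libraries and 584, 645 and 714 CPM in the YAP OE libraries (log2 fold change 0.03, SE 0.060, adjusted p = 0.90). All YAP KD values of Hist1h4n lay within 609 to 635 CPM. The second H4 copy, Hist1h4d, was 606, 680.4 and 625 CPM in the CTR KD libraries and 633, 607 and 629 CPM in the YAP KD libraries (log2 fold change -0.03, SE 0.049, adjusted p = 0.79). Hist1h4d was 617, 616 and 628 CPM in the CTR OE libraries and 548, 573 and 653 CPM in the YAP OE libraries (log2 fold change -0.07, SE 0.056, adjusted p = 0.68), and its groups overlapped in both.

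Members with low counts come next. Hist2h3c1, an H3 copy that shares 94.2% of its coding 50-base words with other genes, had the lowest fold change in both experiments. It was 18.5, 19.3 and 24.1 CPM in the CTR KD libraries and 12.2, 15.4 and 18.4 CPM in the YAP KD libraries, so that every YAP KD library was below every control (log2 fold change -0.42, SE 0.14, adjusted p = 0.13). Under overexpression Hist2h3c1 was 5.26, 7.62 and 11.4 CPM in the CTR OE libraries and 3.58, 7.92 and 5.92 CPM in the YAP OE libraries (log2 fold change -0.50, SE 0.24, adjusted p = 0.42), with overlap. Its sum with the H3 copy Hist2h3b, of which Hist2h3c1 took at most 13.5%, overlapped between the groups in both experiments. With all libraries scaled together, this sum was 171, 199 and 179 CPM in the knockdown controls and 139, 145 and 186 CPM with YAP lowered. It was 154, 167 and 164 CPM in the overexpression controls and 126, 168 and 145 CPM with YAP raised. Hist1h2aa was 1.51, 1.56 and 1.71 CPM in the CTR KD libraries and 2.36, 1.61 and 2.16 CPM in the YAP KD libraries (log2 fold change 0.36, SE 0.16, adjusted p = 0.24). Hist1h2aa was 2.51, 1.83 and 1.66 CPM in the CTR OE libraries and 2.20, 2.04 and 2.63 CPM in the YAP OE libraries (log2 fold change 0.20, SE 0.16, adjusted p = 0.66). Hist1h2ba was 1.01, 0.957 and 1.45 CPM in the CTR KD libraries and 1.18, 0.817 and 1.32 CPM in the YAP KD libraries (log2 fold change -0.02, SE 0.23, adjusted p = 0.97). These H2a and H2b testis variants overlapped between the groups. With YAP raised Hist1h2ba was 1.30, 1.27 and 1.31 CPM in the CTR OE libraries and 1.09, 1.88 and 1.63 CPM in the YAP OE libraries (log2 fold change 0.23, SE 0.18, adjusted p = 0.66), again with overlap.

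Groups that do not overlap were fewer among the members than among all genes. In the knockdown the 3 YAP libraries were all above or all below the 3 controls for 6 of 69 members (8.70%), beside 25.9% of all genes tested. Above the controls were Hist1h1t, Hist2h2be and Hist3h2bb-ps, and below them Hist1h1d, Hist1h2ap and Hist2h3c1. Under overexpression this held for 3 of 69 (4.35%), beside 18.1% of all genes, and those members, Hist1h1t, Hist1h3g and Hist2h2ac, were below the controls. Hist2h2be, Hist3h2bb-ps, Hist1h2ap, Hist1h3g and Hist2h2ac were chosen for mention after their values were seen.

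Hist1h1t, the testis linker histone, was the only member past the test of the difference between the experiments. It was 4.21, 3.75 and 3.99 CPM in the CTR KD libraries and 5.17, 4.68 and 5.59 CPM in the YAP KD libraries, and every YAP KD library was above every control (log2 fold change 0.38, SE 0.095, adjusted p = 0.052). With YAP raised it was 5.20, 5.52 and 5.10 CPM in the CTR OE libraries and 5.08, 4.04 and 4.90 CPM in the YAP OE libraries, with the YAP OE libraries below the controls (log2 fold change -0.17, SE 0.096, adjusted p = 0.50). Neither effect passed the test within its own experiment, but the knockdown effect was called under 4 of 14 other settings, among them the 12-library fit that also gives the difference (0.37, adjusted p = 0.0265), and the overexpression effect under 0 of 14. Their difference, overexpression minus knockdown, was -0.54 (log2, SE 0.14, 95% interval -0.83 to -0.25, edgeR adjusted p = 0.0197), and this contrast called 1 of 69 members beside 1325 of 15049 genes (8.80%). Without replicate 3 of YAP KD the difference was -0.48 (adjusted p = 0.0604), and over its other alternatives the adjusted p ran from 0.0140 to 0.0578, the highest being with the replicate block. The gene was low, with a mean of 235.6 expected counts a library, whole in all libraries, and none of its coding 50-base words occurs in another gene. The other spermatogenic markers H1fnt, Tnp1 and Prm1 did not pass the filter on low counts. Of the class sums, none had a difference past this test: H1 0.13 (SE 0.094, adjusted p = 0.46), H2a 0.09 (SE 0.18, adjusted p = 0.82), H2b -0.04 (SE 0.084, adjusted p = 0.84), H3 0.04 (SE 0.14, adjusted p = 0.90) and H4 -0.04 (SE 0.090, adjusted p = 0.85).

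Near-identical copies moved in opposite directions between the experiments. Hist1h2bq and Hist1h2br are H2b copies on chromosome 13 for which 100% of the coding 50-base words occur in other genes, and Hist1h2bq was chosen for mention after its values were seen. On a scale common to the 12 libraries, Hist1h2bq stood at 794 to 987 CPM in the knockdown experiment and at 272 to 378 CPM in the overexpression experiment. Hist1h2br went the other way, from 449 to 551 CPM in the first and from 931 to 1149 CPM in the second. Their sum was 1294 to 1538 CPM and 1246 to 1448 CPM, so the sums overlapped where the single copies did not. The share of Hist1h2bq in the pair was 61.3 to 68.3% in the 6 knockdown libraries and 20.6 to 27.8% in the 6 overexpression libraries, controls and YAP libraries alike. Within the knockdown experiment Hist1h2br was 483, 548 and 505 CPM in the CTR KD libraries and 447, 499 and 495 CPM in the YAP KD libraries (log2 fold change -0.09, SE 0.059, adjusted p = 0.44). Within the overexpression experiment it was 983, 1027 and 1039 CPM in the CTR OE libraries and 974, 934 and 1153 CPM in the YAP OE libraries (log2 fold change 0.01, SE 0.066, adjusted p = 0.99). The rank of Hist1h2br as the leading H2b copy therefore holds for the mean of the libraries and not for the knockdown libraries, where Hist1h2bq was higher. Whether RSEM was run with the same settings and gene order in both experiments is not given in the sources used here, so the split between these copies cannot be compared across the experiments as expression.

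**Figure D4:**
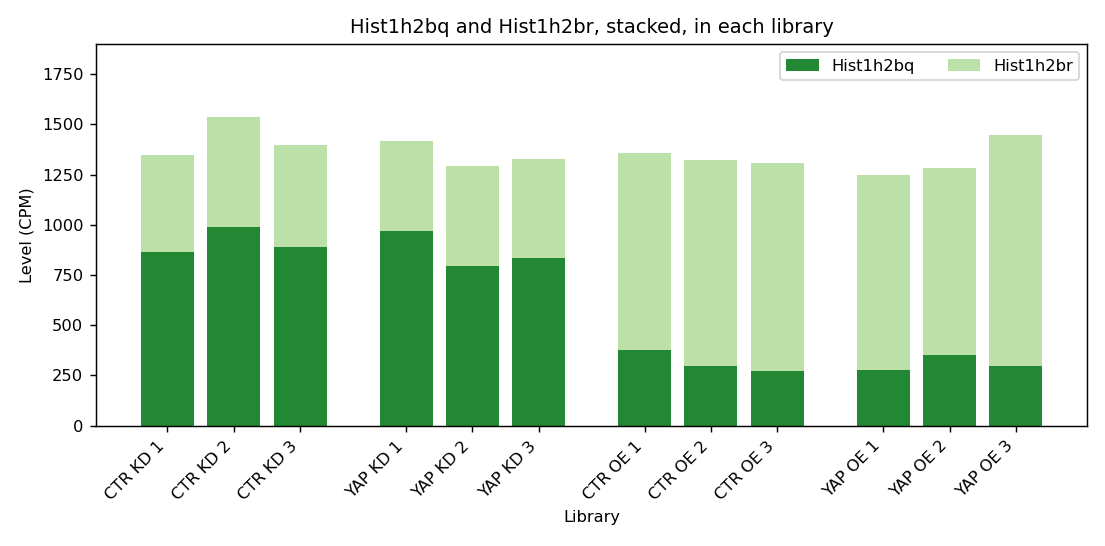
Stacked bars give the level of Hist1h2bq (dark) and Hist1h2br (light) in CPM in each of the 12 libraries, by group. The dark part is 794 to 987 CPM in the knockdown libraries and 272 to 378 CPM in the overexpression libraries, while the whole bar stays between 1246 and 1538 CPM.

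In a second set, Hist1h2ag, Hist1h2ao and Hist1h2ap, the split changed within groups, and Hist1h2ap was lowest in each group where Hist1h2ao was highest. The share of Hist1h2ag in the set stayed at 23.6 to 27.1% in the knockdown libraries and 24.3 to 25.2% in the overexpression libraries. Hist1h2ap was 129, 118 and 125 CPM in the CTR KD libraries and 116, 115 and 74.7 CPM in the YAP KD libraries, its lowest value in the library where Hist1h2ao was highest. Hist1h2ap was 142, 109.8 and 138 CPM in the CTR OE libraries and 138, 74.8 and 131 CPM in the YAP OE libraries, again lowest where Hist1h2ao was highest. The share of Hist1h2ap in the set ran from 12.7 to 32.8% in the knockdown libraries and from 13.5 to 36.8% in the overexpression libraries. The sum of the set was 488, 612 and 558 CPM in the CTR KD libraries, 379.9, 352 and 588 CPM with YAP lowered, 470.2, 541 and 503 CPM in CTR OE and 374, 552 and 459 CPM in YAP OE. The pair Hist2h2aa1 and Hist2h2aa2 kept a nearly constant split instead, with 95.6 to 97.1% of the sum assigned to Hist2h2aa1 in all 12 libraries. Hist1h4n took 92.4 to 93.3% of its sum with Hist1h4m in the knockdown libraries and 93.7 to 94.8% in the overexpression libraries. These ranges do not overlap. Nor did those of Hist2h3c1 in its pair with Hist2h3b, at 8.82 to 13.5% in the knockdown libraries and 2.84 to 6.91% in the overexpression libraries.

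The fold changes of the members were ordered by GC content. Over the 67 members with a coding sequence in Gencode vM1, Spearman's rho between GC content and the log2 fold change was -0.78 with YAP lowered and -0.65 with YAP raised, given as a description since the copies share sequence, libraries and reads. Within classes of the knockdown it was -0.94 for H1 (n = 6), -0.80 for H2a (n = 19), -0.80 for H3 (n = 11), -0.35 for H4 (n = 13) and -0.30 for H2b (n = 18). With YAP raised, H1 had the opposite sign (0.77), and H2a was -0.48, H4 -0.21, H3 -0.20 and H2b -0.0010. H2a and H3, the classes with the lowest ratios to control, have the highest median GC content, 68.7 and 66.9%. It is 65.1% for H4, 62.6% for H2b and 59.4% for H1. In the knockdown H1 departed from this order, with a ratio of 94.0% beside 99.9% for H2b and 99.3% for H4. With YAP raised the ratios of the classes ran in GC order, from 103% for H1 to 90.3% for H2a.

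The same order was seen library by library. The slope of the members' log2 level, relative to the mean of their experiment, per 10% of GC content was -0.35 and -0.30 in replicates 1 and 2 of YAP KD but 0.11 in replicate 3, and 0.10, 0.25 and 0.18 in the CTR KD libraries. Among the overexpression libraries it was -0.25, 0.13 and -0.12 in the YAP OE libraries and -0.06, 0.17 and 0.14 in the CTR OE libraries. For the 10979 other genes with a GC value the slopes were -0.06 to 0.11 and did not follow this order. The measures were unlike, however. GC content was that of the longest whole transcript for those genes and of the coding part for the members. Levels were scaled by total counts for those genes and by TMM for the members. The libraries also differed in the gap between length and effective length that RSEM reports, which grows with fragment length. It was 185.3 and 181.4 bases in replicates 1 and 2 of YAP KD, 182.6 and 180.1 in replicates 1 and 3 of YAP OE and 178.5 in replicate 1 of CTR OE, the 5 libraries with a negative slope, and 168.7 to 176.1 bases in the other 7. The part of fragment length and GC content in the class sums was not tested. With effective length as an offset the H2a sum of the knockdown was -0.24, and with a GC trend removed it was -0.25 (log2). That trend was fitted over all genes with a GC value, on the same mixed measure of GC content. On these unlike measures the other genes did not follow the members' order. Its removal therefore cannot decide the question. Removal of a GC trend, which was tried after the data were seen, led to 6 members called in the knockdown (Hist1h1t higher, Hist1h1c, Hist1h1d, Hist1h2ak, Hist1h3e and Hist1h3f lower), beside 9.09% of all genes in that fit, and to 0 with YAP raised, beside 2.45%.

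**Figure D5:**
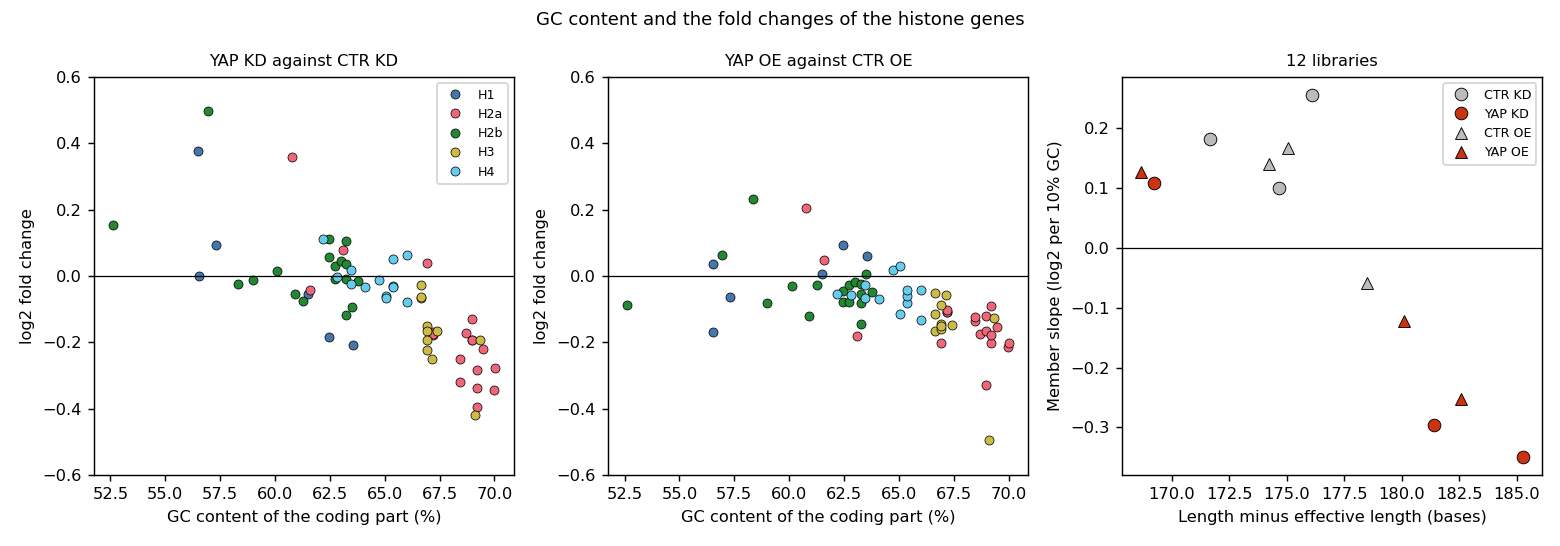
The log2 fold change of the histone genes is plotted against the GC content of their coding part (%) for the knockdown (left) and overexpression (middle), coloured by class; the right panel plots, for each library, the members' slope (log2 per 10% GC) against length minus effective length (bases). Members over 67.5% GC lie below 0 in both comparisons, and the 5 libraries with a gap of 178.5 bases or more have slopes below 0.

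Of 19 genes that make and process histone mRNA, 1, Slbp, was called in the knockdown, where 5.49% of all genes were. Among them are Npat, the coactivator of histone gene transcription, Lsm10 and Lsm11 of the U7 particle and the cleavage factor Cpsf3. Slbp stood at 84.4, 84.0 and 90.1 CPM in the controls of the knockdown and at 101, 96.4 and 101 CPM with YAP lowered. Each YAP KD library was above each control, and Slbp rose by 0.21 on the log2 scale (SE 0.044, edgeR adjusted p = 0.0261). In CTR OE it was 89.6, 87.9 and 87.6 CPM and in YAP OE 84.0, 87.2 and 86.4 CPM (log2 fold change -0.04, SE 0.036, adjusted p = 0.71). The difference between the effects was -0.25 (log2, SE 0.054, edgeR adjusted p = 0.00932). The call in the knockdown was made under 11 of 14 other settings and under 2 of 6 fits that left out a library, and it was lost without replicate 1 of CTR KD (adjusted p = 0.0808) or replicate 1, 2 or 3 of YAP KD (0.11, 0.0693 and 0.11). Npat stood at 90.8, 74.5 and 85.8 CPM in the knockdown controls and at 81.3, 84.1 and 82.5 CPM with YAP lowered (log2 fold change -0.02, SE 0.066). With YAP raised, Npat was 76.0, 84.0 and 81.5 CPM in the controls and 83.8, 78.5 and 75.1 CPM in YAP OE (log2 fold change -0.03, SE 0.048), and its groups overlapped in both. In that experiment 0 of the 19 were called by edgeR (1 at an unadjusted p under 0.05), DESeq2 or limma-voom. The summed level of the 19 genes was 1700.5 to 1717 CPM in the knockdown controls and 1770.2 to 1806 CPM with YAP lowered, which do not overlap, and 1734 to 1767 CPM against 1693 to 1753 CPM with YAP raised, which do.

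In the other gene lists around histone supply edgeR called no single gene in either experiment, and no list was tested as a whole. Of the replacement histones, most of which are made throughout the cycle from polyadenylated mRNA, 0 of 11 tested were called in either experiment (H1foo was too low to test), with 3 and 1 at an unadjusted p under 0.05. Their summed level was 2411 to 2543 CPM in CTR KD, 2433 to 2605 CPM in YAP KD, 2400 to 2540.1 CPM in CTR OE and 2307 to 2433 CPM in YAP OE. H2afx, known to give a stem-loop mRNA as well as a polyadenylated one and picked after its values were seen, was the lowest of them in the knockdown, at 365, 473 and 414 CPM in the controls and 326, 294 and 440 CPM with YAP lowered (log2 fold change -0.24, SE 0.14, adjusted p = 0.39), and its groups overlapped. Of 15 histone chaperones such as Asf1b and Chaf1a, 0 were called (2 and 0 unadjusted). Their medians were 0.05 and -0.02 on the log2 scale, and their sums did not overlap in the knockdown (3618 to 3907 CPM in the controls, 3952 to 4032 CPM with YAP lowered) but did with YAP raised (3772 to 3943 against 3766 to 3909 CPM). Of 25 S phase genes such as Pcna and the Mcm genes, 0 were called by edgeR in either experiment (5 and 1 unadjusted), and limma-voom called 1 in the knockdown. The S phase genes had a median of 0.06 in the knockdown and -0.02 in the overexpression experiment, and their sum was 4841 to 4971 CPM in the knockdown controls and 4848 to 5116 CPM with YAP lowered. With YAP raised the S phase sum was 4844 to 4966 CPM in the controls and 4645 to 4831 CPM in YAP OE, which do not overlap. Of 14 genes of G2 and M phase, 0 were called (1 and 1 unadjusted), with medians of 0.06 and 0.01. Their sums were 3672 to 4011 CPM against 4021 to 4153 CPM in the knockdown, without overlap, and 3963 to 4075 CPM against 3968 to 4196 CPM with YAP raised. None of these sums, nor that of the genes that make and process histone mRNA, was tested. Among all single genes tested, the groups did not overlap for 25.9% in the knockdown and 18.1% with YAP raised. An unadjusted p under 0.05 (edgeR) was reached by 19.6 and 13.1% of all genes. DESeq2 called 0 genes in these 4 lists.

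Markers of other cell types moved in a few places, and their part in the histone values was not tested. In the knockdown the neural markers Tubb3 and Nes were called higher (2 of 4; summed level 83.8 to 88.7 CPM in the controls and 101 to 107 CPM with YAP lowered). In the overexpression experiment Tubb3 was called lower (1 of 4), the trophoblast markers Cdx2 and Gata3 higher (2 of 4; 6.85 to 7.36 CPM against 8.91 to 12.3 CPM) and the two-cell-like markers Zscan4c, Zscan4d and Usp17la higher (3 of 4; 13.4 to 17.4 CPM against 20.99 to 24.6 CPM). None of the 8 ESC markers was called by edgeR in either experiment. At an unadjusted p under 0.05 there were 4 and 1, beside 19.6 and 13.1% of all genes. In the knockdown the median log2 fold change of the ESC markers was -0.055. Their sum was 5848 to 6026 CPM in the controls and 5542 to 5856 CPM with YAP lowered, which overlap. Nor did edgeR call any fibroblast (0 of 4 tested), primitive endoderm (0 of 5), mesoderm (0 of 3) or spermatogenic marker (0 of 3, Hist1h1t, Hist1h2aa and Hist1h2ba). In the knockdown the 4 two-cell-like markers tested all had log2 fold changes below 0 (-0.40 to -0.20). Their sum was 12.6 to 15.2 CPM in the controls and 10.3 to 11.3 CPM with YAP lowered, without overlap. There edgeR called 0 of them and DESeq2 1. The sums of the other markers are small beside that of the ESC markers.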

How the data were processed

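RNA from 12 bulk libraries of E14Tg2a mouse ESCs was sequenced (3 per group, 4 groups, described by the study as independent samples). Per the study's methods the authors aligned reads with STAR to mm10 and quantified RefSeq genes with RSEM; versions, strand setting and RNA selection are not given in the sources used here. The deposited tables give, per gene, expected counts (reads divided among genes by RSEM), TPM, FPKM, length and effective length; the authors' FPKM values were not used, and the deposited TPM values entered only an alternative test with limma on log2(TPM + pseudocount).

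Expected counts were rounded and tested with edgeR 4.0.16 (R 4.3.3; TMM factors, filterByExpr, quasi-likelihood F test, two-sided, Benjamini-Hochberg over all genes, called at an adjusted p under 0.05), for YAP against control in each experiment and, over all 12 libraries, for the difference of these effects. For class sums, the members of a class were replaced by their summed counts. Intervals are 95%. DESeq2 1.42.0 and limma 3.58.1 were alternatives, and the scripts were tested on simulated data. With 3 libraries against 3, an exact permutation test of 1 value cannot go below 0.10, so none was used. Replicates differed by more than counting noise (chi-square per degree of freedom 3.39 to 24.2).

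Members and gene lists were chosen with earlier results of these data known. Values in each library are given for the 2 members of each class with the highest level per length, any member called, and the 2 highest and 2 lowest fold changes of each experiment among members that averaged 50 or more expected counts. Removal of a GC trend, and the replicate block and left-out libraries for the difference, were added after the data were seen. Coordinates and start regions are from RefSeq (GRCm38.p6), coding sequences and stem-loops from Gencode vM1 transcripts matched by symbol.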

Additional observations from a re-analysis of the deposited data

Results flagged for a closer look

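A pair of genes is given here because the effect of YAP differed between the knockdown and overexpression experiments by a test of the difference itself (edgeR, 12 libraries). For Hist1h1t the difference, overexpression minus knockdown, was -0.54 on the log2 scale (adjusted p = 0.0197). For Slbp it was -0.25 (adjusted p = 0.00932), and it was called under all 16 alternatives run for it (adjusted p from 0.00604 to 0.0388). Groups of 3 libraries were not tested for a library far from the others.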

How the results depend on the processing

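The number of members called moved with the setting. In the knockdown it was 2 without a filter beyond 1 count and 2 with DESeq2, 1 with the 12-library fit, 1 with effective length as an offset, 1 with the replicate block and 6 with a GC trend removed. With YAP raised it was 5 without a filter, 1 with DESeq2 and 2 with the replicate block. For the difference it was 2 with total counts, 2 without a filter and 0 with the replicate block (Hist1h1t, adjusted p = 0.0578). Of all genes, DESeq2 called 4.92% in the knockdown and 2.05% with YAP raised. In the knockdown 9.09% were called with a GC trend removed and 2.51% without YAP KD replicate 3. The share of all genes under the other settings is not given here. Those counts are therefore not read as results about the members. The replicate numbers were not taken to pair the samples: over all genes, correlations of same-numbered deviations were -0.40, -0.29 and 0.04 in the knockdown and 0.04, 0.08 and -0.03 with YAP raised. Over the 69 members they were 0.76, -0.47 and 0.36, and 0.76, 0.76 and 0.19 with YAP raised, where the H2a and H3 sums were lower in YAP OE in all 3 same-numbered pairs. Leaving out 1 library gave 0 to 10 members in the knockdown (10 without YAP KD replicate 3), 0 to 5 with YAP raised (5 without YAP OE replicate 2 and 5 without replicate 3) and 1 to 3 for the difference. Values near 0 changed sign. In the knockdown the H2b sum was 0.0184 with effective length and 0.00346 with either TPM pseudocount, the H4 sum 0.0155 and 0.00167, and Hist1h1a and Hist1h4d were 0.0118 and 0.00210 with effective length. With YAP raised, Hist1h2br was -0.00107 with limma-voom, and Hist1h2bg and Hist1h3e were 0.0144 and 9.22e-06 with a GC trend removed. Ranges over left-out libraries (log2) in the knockdown were H2a sum -0.43 to -0.12, H2b sum -0.0368 to 0.0430, H4 sum -0.0460 to 0.0453, Hist1h1a -0.0522 to 0.0477, Hist1h4d -0.0735 to 0.0175, Hist1h2an -0.64 to 0.0263 and Hist1h2ba -0.19 to 0.18. With YAP raised they were H1 sum -0.00954 to 0.12, H2b sum -0.11 to 0.00714, H4 sum -0.13 to 0.00993, Hist1h1a -0.0171 to 0.0728, Hist1h2br -0.10 to 0.0645, Hist1h2bg -0.13 to 0.0586, Hist1h3e -0.11 to 0.0373, Hist1h3h -0.29 to 0.00237, Hist1h4n -0.0515 to 0.10 and Hist1h2ao -0.47 to 0.16. For the difference they were H2a sum -0.0211 to 0.28, H2b sum -0.11 to 0.00750, H3 sum -0.0343 to 0.15 and H4 sum -0.12 to 0.0193. The cause was not tested. No class sum was called under any alternative except H2a without YAP KD replicate 3. With 3 libraries a group, changes within the intervals given for each class were not excluded.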
